A study of Mus musculus with 2 samples.

Results

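The serotonergic neuron genes are 8 protein-coding genes chosen by name: the transcription factor genes Gata2, Gata3 and Fev, the enzyme genes Tph2 and Ddc, the transporter genes Slc18a2 and Slc6a4, and the receptor gene Htr1a. All 8 were found among the 55536 genes of the GENCODE M21 quantification on mm10. Their RNA was measured by polyA-plus RNA-seq in whole hindbrain of healthy B6NCrl mouse embryos at 12.5 days, both sexes mixed and no allele or treatment named. The only group has 2 biological replicates: pool 1 held tissue of 120 embryos and pool 2 tissue of 88. Each library started from 10 ng of RNA. With 1 group there is no contrast between conditions, so the values below are levels and their spread over the pools, and no test was run.

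Serotonergic neurons of the mouse brain are born in the ventral hindbrain and later form the raphe nuclei. Sonic hedgehog from the floor plate sets up their progenitors, which express Nkx2-2, and postmitotic precursors then switch on Gata2, Gata3, Lmx1b and Fev (also called Pet1). These factors are required for the set of genes that makes serotonin from tryptophan (Tph2, Ddc), loads it into vesicles (Slc18a2), takes it back up (Slc6a4) and senses it on the cell body (Htr1a). Several of these genes are also used elsewhere. Gata2 and Gata3 are used in V2b interneurons, the inner ear, blood or endothelium, and Ddc and Slc18a2 in other monoamine neurons. In whole tissue, fewer serotonergic cells and less RNA per cell cannot be told apart.

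Upstream sequence was read for all 8 genes as the 250 bases before each RefSeq start (GRCm38.p6, the mm10 assembly), which gave 10 windows because Gata2 and Ddc have a pair of starts each. The usual GATA-factor core, spelled AGATAA or AGATAG or TGATAA or TGATAG, was searched on both strands because GATA factor genes are among the 8. It occurred in the windows of 4 genes, against 26.5% of 32851 RefSeq promoter windows of that length. Those 4 windows are printed 5′ to 3′ on the gene's strand, with the GATA letters in capitals. The motifs and the windows to print were chosen after the sequences were seen.
Fev, chr1:74885409-74885658, minus strand: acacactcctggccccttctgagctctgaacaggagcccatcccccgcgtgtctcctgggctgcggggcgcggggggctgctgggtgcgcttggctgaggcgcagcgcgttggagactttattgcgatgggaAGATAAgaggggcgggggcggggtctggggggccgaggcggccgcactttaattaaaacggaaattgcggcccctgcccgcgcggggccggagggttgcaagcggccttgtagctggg
Tph2, chr10:115185023-115185272, minus strand: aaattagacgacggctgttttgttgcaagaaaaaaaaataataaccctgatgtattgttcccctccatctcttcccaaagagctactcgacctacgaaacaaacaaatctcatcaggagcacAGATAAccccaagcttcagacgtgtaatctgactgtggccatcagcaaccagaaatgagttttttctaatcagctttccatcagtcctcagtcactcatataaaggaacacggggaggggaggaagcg
Slc6a4, chr11:76998347-76998596, plus strand: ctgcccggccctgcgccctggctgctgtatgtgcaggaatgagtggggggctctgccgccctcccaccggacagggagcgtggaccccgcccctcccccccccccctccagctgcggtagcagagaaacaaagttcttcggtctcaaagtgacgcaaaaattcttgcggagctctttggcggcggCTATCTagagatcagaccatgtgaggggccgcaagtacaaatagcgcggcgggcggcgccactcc
Slc18a2, chr19:59260628-59260877, plus strand: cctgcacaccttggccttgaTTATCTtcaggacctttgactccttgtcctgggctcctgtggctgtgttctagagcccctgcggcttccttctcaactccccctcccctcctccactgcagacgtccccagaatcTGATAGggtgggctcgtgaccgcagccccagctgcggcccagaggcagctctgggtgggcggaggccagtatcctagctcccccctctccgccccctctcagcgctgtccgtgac

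In Fev the match AGATAA starts 118 bases before the RefSeq start, and in Tph2 the same letters start 128 bases before it. The Slc6a4 match, CTATCT, reads on the opposite strand 65 bases before the start. Slc18a2 has a match on each strand, TGATAG at 115 bases and TTATCT at 230 bases. The letters TAATTA, a homeodomain core, were found only in the Fev window among the 10 (69 bases before the start, 4.84% of all windows hold them on either strand). TATAAA on the gene's strand was found only for Tph2 (30 bases before the start, 7.59% of all windows). CAGCTG, an E-box, was found for Slc18a2 and Slc6a4 (13% of all windows). The ETS-type letters CCGGAA and GGAAGT, searched because Fev is an ETS factor, were in the Gata3 and Htr1a windows (27.1% of all windows). A match describes the letters in the window and is not a measured binding site.

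The libraries held 32547454 expected counts in pool 1 and 30559015 in pool 2, of which ERCC spike-in RNAs took 3.31% and 4.25%. Regional identity was checked with lists added after the data were seen. Of 8 hindbrain genes, 7 reached 1 TPM in both pools, led by Hoxb2 (45.07 and 56.72 TPM) and Hoxa2 (40.44 and 53.82 TPM). Of 5 forebrain genes, 1 did, namely Emx2 (2.14 and 3.65 TPM).

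TPM, the abundance per transcript length in a library scaled to a common total, was used to compare genes. Of the 8 serotonergic genes, 7 reached 1 TPM in both pools, where 29.0% of all genes and 62.0% of protein-coding genes did. Htr1a was the exception. Over the pools the median of the 8 mean levels was 6.80 TPM, beside 5.53 TPM over all protein-coding genes. The order from high to low was Gata3, Gata2, Slc18a2, Ddc, Fev, Slc6a4, Tph2 and Htr1a, and the highest mean was 51.0-fold the lowest. In all 7 neighbouring pairs the ranges over the pools did not overlap. The intervals that the authors deposited with their TPM values overlapped for 3 of these pairs: Slc6a4 and Tph2 in both pools, and Ddc and Fev and also Fev and Slc6a4 in 1 pool each, so those orders are the least resolved. Without a single short Gata2 transcript, Gata2-203, the ranges of Gata2 and Slc18a2 overlapped, although Gata2 was still the higher in each pool.

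**Figure D1:**
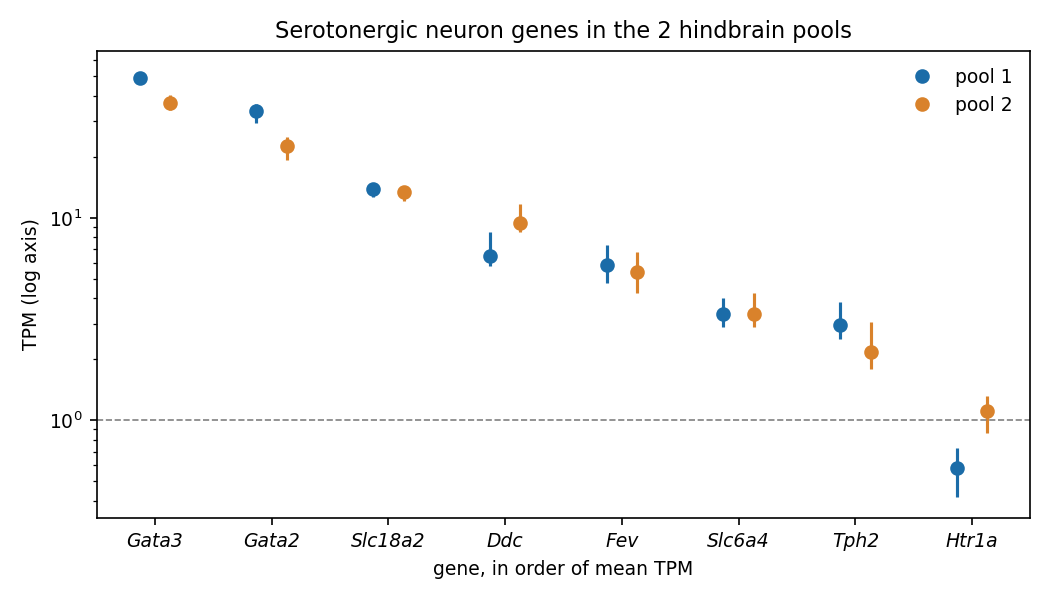
TPM (log axis) of the 8 serotonergic genes in order of their mean, with pool 1 and pool 2 as points, the intervals deposited by the authors as vertical lines, and a dashed line at 1 TPM. Gata3 lies highest at 49.09 and 37.14 TPM, and Htr1a lies lowest, on either side of the dashed line at 0.58 and 1.11 TPM.

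Gata3 (ENSMUSG00000015619.10, chr2:9857078-9890034, minus strand), a zinc-finger factor needed mainly by caudal serotonergic neurons, was at 49.09 TPM in pool 1 and 37.14 in pool 2 (43.1 ± 8.45, SD, n = 2). Gata2 (ENSMUSG00000015053.14, chr6:88193891-88207032, plus strand), its close relative that acts early in the rostral group, was at 33.76 and 22.58 TPM (28.2 ± 7.91, SD, n = 2). Both were higher in pool 1, and the pools did not overlap in the authors' intervals for either gene. Gata3 ranked 4274 and Gata2 ranked 6005 of 55536 genes by mean TPM. Gata3 exceeded Gata2 within each pool, 1.45-fold in pool 1 and 1.64-fold in pool 2. This ratio was 2.67 and 2.61 in GENCODE M4, an older annotation of the same libraries, and 2.80 and 2.70 in M21 without the short transcript Gata2-203, comparisons added after the data were seen. The other GATA genes, listed after values were seen, were far lower: Gata6 stood at 1.37 and 0.83 TPM, Gata1 at 1.19 and 0.75 TPM, and Gata4 and Gata5 at 0.24 TPM or less in either pool.

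Fev (ENSMUSG00000055197.4, chr1:74881509-74885419, minus strand), the ETS factor whose expression in the brain is largely restricted to serotonergic neurons, was at 5.88 TPM in pool 1 and 5.38 in pool 2 (5.63 ± 0.354, SD, n = 2). These levels rest on 135 and 110 expected counts. The pools were close, and their deposited intervals, 4.75 to 7.32 and 4.25 to 6.82 TPM, overlapped for most of their length. Fev was thus well below both GATA genes in TPM in each pool.

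Tph2 (ENSMUSG00000006764.8, chr10:115078641-115185022, minus strand) encodes neuronal tryptophan hydroxylase, the rate-limiting enzyme of serotonin synthesis in the brain. It was at 2.97 TPM in pool 1 and 2.17 in pool 2 (2.57 ± 0.566, SD, n = 2), from 150 and 101 expected counts. Pool 1 was the higher, although the deposited intervals overlapped (2.53 to 3.85 and 1.78 to 3.07 TPM). Tph1, the tryptophan hydroxylase of gut and pineal gland, had 3 counts in pool 1 and 14 in pool 2 (0.09 and 0.64 TPM). Tph2 therefore exceeded its paralog in both pools, but a ratio against so few Tph1 counts is poorly determined.

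Ddc (ENSMUSG00000020182.16, chr11:11814101-11898144, minus strand) encodes aromatic L-amino acid decarboxylase, which completes the synthesis of both serotonin and dopamine. Its level was 6.45 TPM in pool 1 and 9.48 TPM in pool 2 (7.97 ± 2.14, SD, n = 2), from 179 and 226 expected counts. In contrast to Tph2, the higher value was in pool 2. The TPM ratio of Ddc to Tph2 was 2.17 in pool 1 and 4.37 in pool 2.

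Slc18a2 (ENSMUSG00000025094.8, chr19:59260896-59296012, plus strand), the vesicular monoamine transporter, was at 13.89 TPM in pool 1 and 13.45 in pool 2 (13.7 ± 0.311, SD, n = 2). It was the highest of the 5 genes that act after specification, and the pools were nearly level. Its paralog Slc18a1, the vesicular transporter of endocrine cells, was at 0.99 and 1.09 TPM. Slc18a2 exceeded Tph2 by 4.68-fold in pool 1 and 6.20-fold in pool 2. It was close to the level of Th, the rate-limiting enzyme of catecholamine synthesis, at 1.21-fold and 1.16-fold of it.

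Slc6a4 (ENSMUSG00000020838.12, chr11:76998603-77032340, plus strand), the plasma membrane serotonin transporter, was at 3.36 TPM in pool 1 and 3.35 in pool 2 (3.36 ± 0.00707, SD, n = 2), from 174 and 159 expected counts. No other of the 8 genes had pools so close. The noradrenaline transporter Slc6a2 was at 1.54 and 1.41 TPM, and the dopamine transporter Slc6a3 had 3 and 2 counts. Slc29a4, a low-affinity monoamine transporter, was far above Slc6a4, at 13.5-fold of it in pool 1 and 13.8-fold in pool 2 by TPM.

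Htr1a (ENSMUSG00000021721.5, chr13:105443639-105448122, plus strand), the inhibitory autoreceptor of serotonergic neurons, was at 0.58 TPM in pool 1 and 1.11 in pool 2 (0.845 ± 0.375, SD, n = 2). It had 51 and 90 expected counts, and 3 counts, taken here as the floor of detection, would equal 0.0342 and 0.0372 TPM. It was therefore detected in both pools, lower in pool 1, and the deposited intervals (0.419 to 0.731 and 0.869 to 1.31 TPM) did not overlap. Which cells the Htr1a RNA came from was not tested.

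Among all 14 serotonin receptor genes Htr1a was sixth by mean TPM, behind Htr2c, Htr3a, Htr1b, Htr7 and Htr2a. Its place behind Htr2a was not resolved. Htr1a was the lower in pool 1 (0.58 against 0.95 TPM) but the higher in pool 2 (1.11 against 0.81 TPM). In GENCODE M4 its mean was the higher, 0.9 against 0.79 TPM. Htr2c, a Gq-coupled receptor of choroid plexus and neurons, led with 5.34 and 7.76 TPM. The ion channel subunit gene Htr3a was at 1.83 and 1.74 TPM, Htr1b at 1.38 and 1.21 TPM, and Htr7 at 1.15 and 1.37 TPM. These 4 were the receptor genes at 1 TPM or more in both pools. Htr2a was at 0.95 and 0.81 TPM, Htr2b at 0.51 and 0.66 TPM, and Htr1d at 0.20 and 0.38 TPM. The remaining 6, Htr3b, Htr5a, Htr6, Htr1f, Htr4 and Htr5b, were each at 0.17 TPM or less in both pools.

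**Figure D2:**
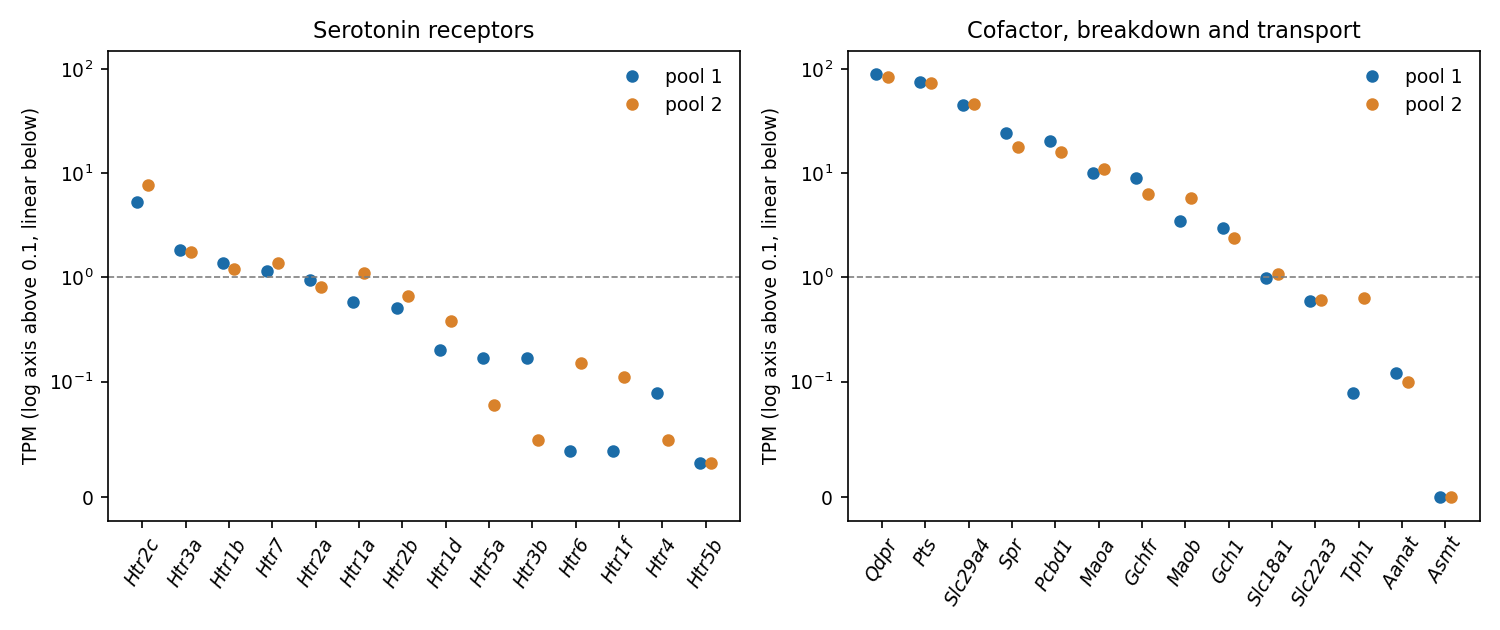
TPM in each pool (log axis above 0.1 TPM, linear below) of 14 serotonin receptor genes and of 14 genes of cofactor supply, breakdown and transport, with a dashed line at 1 TPM. Htr2c stands above the other receptor genes at 5.34 and 7.76 TPM, and Qdpr and Pts head the second panel.

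To set the pools against each other, expected counts were scaled by TMM, a normalisation on the bulk of genes, and expressed as log2 of pool 2 over pool 1. Because the pools are replicates, this ratio measures spread and not an effect. None of the 8 genes differed by 2-fold or more, where 1.00% of 14989 genes with at least 50 mean counts did (0.587% higher and 0.414% lower in pool 2). At 1.5-fold 1 of 8 did, Htr1a, which was higher in pool 2. Of all genes 3.42% passed that limit, 1.81% higher and 1.60% lower in pool 2. With spike-in totals as the scale, a combination added after the data were seen, that limit was passed instead by 3 of 8 genes, all lower in pool 2. They were Gata3 (log2 ratio −0.87), Tph2 (−0.83) and Gata2 (−0.76). Htr1a was then at 0.55 and Ddc at 0.07. Of all genes 11.8% passed it on that scale, 0.640% higher and 11.1% lower in pool 2. By TMM the direction was lower in pool 2 for 6 of 8 genes, against 48.6% of all genes (95.6% by spike-in totals, with the same count of 6), and the median log2 ratio was −0.12 beside 0.00 over all genes.

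Counting error alone gave each ratio a 95% interval, which covers neither tissue nor amplification differences. The interval left out 0 for 5 of 8 genes, beside 35.1% of all genes compared (18.8% higher and 16.2% lower in pool 2). Of these 5, 3 were lower in pool 2. Gata3 had a log2 ratio of −0.49 (−0.58 to −0.40), a 1.41-fold higher count in pool 1. Gata2 had −0.39 (−0.52 to −0.26) and Tph2 had −0.46 (−0.84 to −0.09). The other 2 were higher in pool 2, Htr1a at 0.92 (0.42 to 1.45) and Ddc at 0.44 (0.16 to 0.74). That is 1.89-fold for Htr1a and 1.36-fold for Ddc. The intervals of Fev (−0.19, from −0.56 to 0.19), Slc18a2 (−0.06, from −0.19 to 0.07) and Slc6a4 (−0.02, from −0.34 to 0.30) included 0. The 8 genes thus did not share a direction between the pools: the GATA genes and Tph2 were on the pool 1 side, Htr1a and Ddc on the pool 2 side. No gene of the 8 changed sign under any scaling, but spike-in scaling shifted every log2 ratio by −0.38, which turns small positive ratios of other genes negative, so directions given for gene lists hold for TMM scaling.

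**Figure D3:**
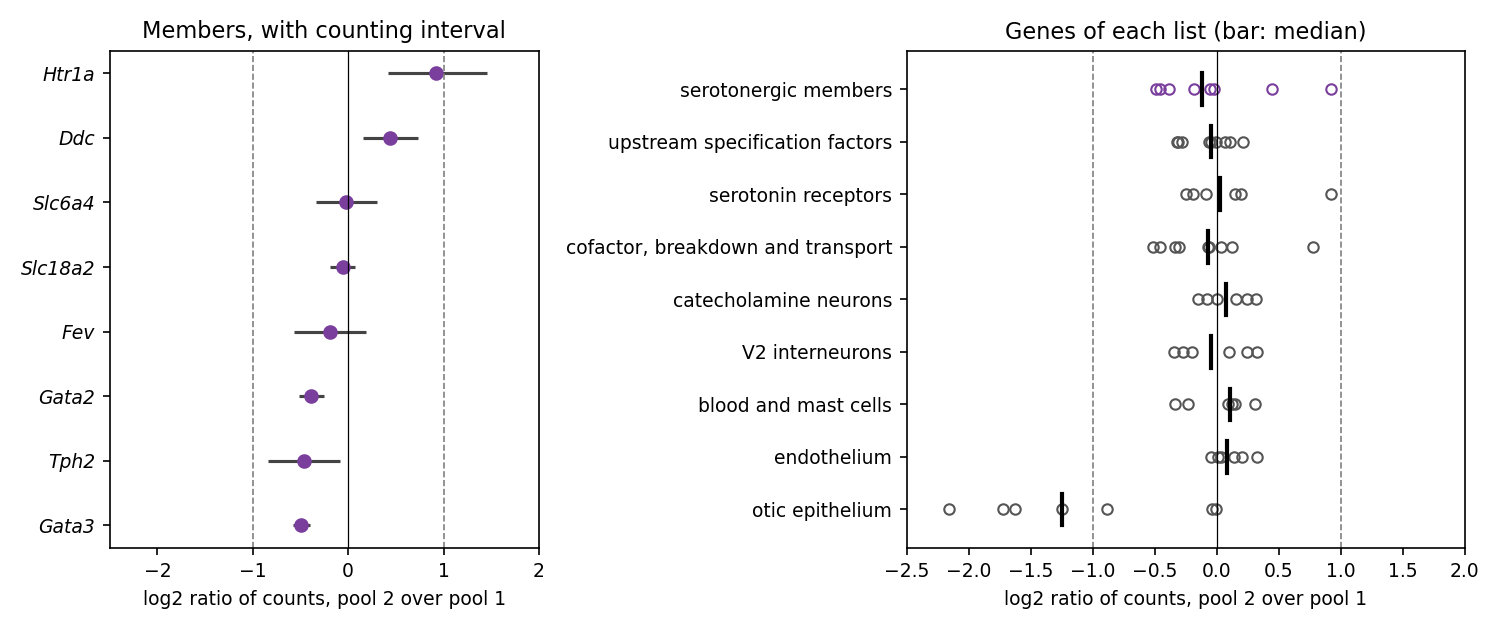
Log2 ratio of TMM-scaled counts, pool 2 over pool 1: the 8 serotonergic genes with their 95% counting intervals, and the single genes of each gene list with the list's median as a bar. The serotonergic genes run from −0.49 for Gata3 to 0.92 for Htr1a, while the otic epithelium genes reach −2.16.

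The transcript tables gave 6 of 8 genes a leading transcript with at least 60% of the gene's TPM in both pools. No share over all genes stands beside this count, so it only describes the 8 genes. Htr1a has a single annotated transcript, which fixes its share at 100%, and Tph2-201 took 100% of Tph2. Slc18a2-201 took 96.0% in pool 1 and 96.7% in pool 2, and Slc6a4-201 took 94.0% and 91.0%. For Gata3, Gata3-201 took 85.6% and 80.4% of TPM but 98.5% and 97.9% of counts, since the 344-base transcript Gata3-204 turns 30.90 and 28.46 counts into 6.31 TPM in each pool. For Fev, Fev-201 took 76.5% and 69.9% of TPM. The retained-intron transcript Fev-203 took 23.5% and 23.9% of Fev TPM, on 9.89 and 8.52 counts only.

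Gata2 divided differently by each measure. The 423-base transcript Gata2-203 held 48.0% and 39.1% of Gata2 TPM (16.22 and 8.82 TPM) on 104.98 and 52.62 counts. Gata2-202, which begins at the upstream start, held 45.4% and 54.2% of TPM but 80.0% and 83.0% of counts. Without Gata2-203 the gene would stand at 17.54 and 13.76 TPM (15.7 ± 2.67, SD, n = 2), a range that overlaps that of Slc18a2 (13.45 to 13.89 TPM), although Gata2 stays the higher within each pool. GENCODE M4, the older annotation deposited for the same libraries, has 2 Gata2 transcripts and put the gene at 19.35 and 14.98 TPM, above Slc18a2 at 14.27 and 13.87 TPM. The M21 value was 1.74-fold of it in pool 1 and 1.51-fold in pool 2, although counts were nearly the same (1162 and 824 in M21, 1143 and 814 in M4). With Gata2-203 left out, M21 came to 0.906 and 0.919 of the M4 level. The other 7 genes did not move by 1.5-fold between annotations, and 5.75% of 14395 genes did. In M4 the leading transcript was the other one: Gata2-201, which begins at the downstream start in M21, held 74.9% and 67.1% of counts there. It was matched between annotations by identifier only, with a length of 3241 bases in M4 and 3571 in M21, and its M4 start was not analysed here. In M21 the starts lie 4443 bases apart, and which was used more was not resolved by these tables.

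Ddc was the other gene without a leading transcript. In pool 1 Ddc-202, from the downstream start, had 3.44 TPM and Ddc-201, from the upstream start, 0.00 TPM. In pool 2 Ddc-201 had 3.27 TPM and Ddc-202 had 1.10 TPM, so the split was opposite in the pools. The authors' intervals for Ddc-201 were 0.0001 to 2.46 TPM in pool 1 and 0.009 to 3.64 TPM in pool 2, which overlap, and so do those of Ddc-202 (0.140 to 3.01 and 0.0001 to 3.16 TPM). The pool 1 value of Ddc-202 lies above the upper bound of its own interval. The division of reads between the Ddc starts was therefore not resolved at this depth. The processed transcript Ddc-206 held 20.3% of Ddc TPM in pool 1 and 38.1% in pool 2. The starts of Ddc-201 and Ddc-202 lie 7636 bases apart. The 250 bases before each RefSeq start of Ddc are shown. The upstream RefSeq start is that of Ddc-210, which had 0 counts in both pools. It lies 100 bases before the start of Ddc-201, so the upstream window does not adjoin the Ddc-201 start. Neither window holds any of the motifs searched above.
Ddc downstream start, chr11:11890409-11890658, minus strand: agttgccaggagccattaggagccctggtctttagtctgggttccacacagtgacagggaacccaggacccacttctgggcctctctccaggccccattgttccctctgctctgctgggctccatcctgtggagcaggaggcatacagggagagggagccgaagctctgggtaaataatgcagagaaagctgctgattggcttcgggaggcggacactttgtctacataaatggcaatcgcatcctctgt
Ddc upstream start, chr11:11898145-11898394, minus strand: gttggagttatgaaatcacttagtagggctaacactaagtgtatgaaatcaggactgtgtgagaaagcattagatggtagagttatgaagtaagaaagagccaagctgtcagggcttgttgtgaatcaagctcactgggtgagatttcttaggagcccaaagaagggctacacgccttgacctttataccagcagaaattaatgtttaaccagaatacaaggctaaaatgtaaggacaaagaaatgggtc

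**Figure D4:**
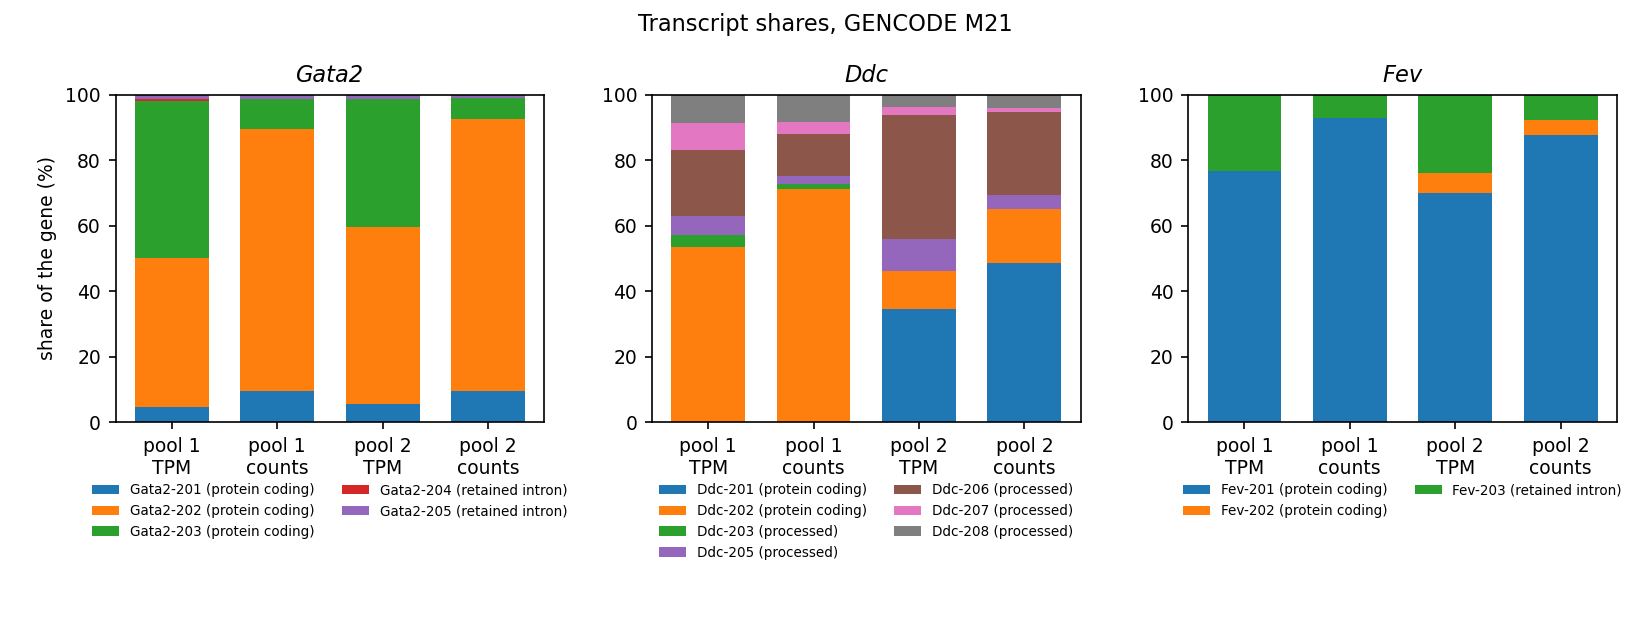
Share of each transcript (%) in the TPM and in the expected counts of Gata2, Ddc and Fev in each pool, GENCODE M21, as stacked bars coloured by transcript. The short transcript Gata2-203 takes 48.0% of TPM but 9.03% of counts in pool 1, and Ddc-201 is visible in pool 2 only.

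Some of the 8 genes overlap other annotated genes, named here after their values were seen, and it is not known from the labels or headers if reads were counted by strand. Gata3 shares 155 exon bases with the antisense gene Gm13256 (0.24 and 0.13 TPM) and 77 with 9230102O04Rik on its own strand (2.72 and 2.93 TPM). Slc18a2 shares 111 exon bases with the antisense gene Gm29261, which had 0 counts in both pools. Ddc and Slc6a4 share no exon base with the antisense genes in their spans.

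Of the 10 genes listed as upstream specification factors, a list that also holds En1 and En2, 9 reached 1 TPM in both pools. Their median was 4.03 TPM over all 10. The ventral progenitor factor Nkx6-1 was at 14.66 and 14.14 TPM. En1, which maintains rostral serotonergic neurons, was at 5.79 and 6.75 TPM, and the neuronal differentiation factor Insm1 at 6.59 and 5.34 TPM. Lmx1b, the LIM homeodomain partner of Fev, was at 3.88 and 4.28 TPM, and Nkx2-2 was at 2.80 and 2.25 TPM. Lmx1b was thus lower than Fev in both pools, but in pool 2 their deposited intervals overlapped (3.83 to 4.97 and 4.25 to 6.82 TPM). The leading transcript Fev-201 alone was at 4.50 and 3.77 TPM, which in pool 2 is below Lmx1b. En2 stayed under 1 TPM, at 0.51 and 0.66. Between the pools none of the 9 genes with 50 counts differed by 2-fold, 6 were lower and 3 higher in pool 2, and their median log2 ratio was −0.05.

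Among 14 genes of cofactor supply, breakdown and transport, 9 reached 1 TPM in both pools, with a median of 6.18 TPM. Qdpr, which regenerates the tetrahydrobiopterin that Tph2 needs, was at 90.29 and 83.94 TPM. Pts and Spr, enzymes of tetrahydrobiopterin synthesis, were at 74.50 and 72.99 TPM and at 24.16 and 17.90 TPM. All 3 were far above Tph2 itself. Gch1, which starts that synthesis and is named here after its value was seen, was much lower at 2.97 and 2.42 TPM, close to Tph2. Slc29a4 stood at 45.32 and 46.19 TPM and Slc22a3, another low-affinity transporter, at 0.60 and 0.61 TPM. The monoamine oxidase genes, likewise named afterwards, were at 10.08 and 11.05 TPM (Maoa) and 3.45 and 5.83 TPM (Maob). Of the melatonin genes, Aanat had 3 and 2 counts and Asmt had 0, which allows up to 0.138 TPM in pool 1 and 0.149 TPM in pool 2. None of the 9 genes with 50 counts differed by 2-fold between the pools, with 6 lower and 3 higher in pool 2 and a median log2 ratio of −0.07.

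Markers of other cells that can express members were measured beside them, and no marker in these lists was at 0 in either pool. For Ddc and Slc18a2 the catecholamine neuron list is the relevant one: 6 of 8 reached 1 TPM in both pools, and the summed level was 68.4 TPM in pool 1 and 79.2 TPM in pool 2. Th was at 11.52 and 11.62 TPM and Dbh, which makes noradrenaline, at 1.33 and 1.75 TPM. Their part in the Ddc and Slc18a2 levels was not tested.

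For Gata2 and Gata3, 4 lists were measured. V2 interneuron markers summed to 38.6 and 34.4 TPM (5 of 6 at 1 TPM or more in both pools), among them Sox14 at 14.16 and 11.80 TPM, Tal1 at 4.68 and 5.40 TPM and Foxn4 at 2.44 and 3.18 TPM. Blood and mast cell markers summed to 50.7 and 55.3 TPM (6 of 8), and endothelial markers to 102 and 110 TPM (6 of 6). By log2 ratio, 3 V2 genes were lower and 3 higher in pool 2, with a median of −0.05. Of the 6 endothelial genes, 1 was lower and 5 were higher in pool 2, with a median of 0.09. In the blood list Kit, also a gene of neural cells, held most of the sum, at 32.24 and 35.35 TPM. The erythroid genes of that list had lower scaled counts in pool 2. Their log2 ratio was −0.24 for Gata1, −0.34 for Epor and, named after its value was seen, −0.23 for Klf1. The counting interval of each of these 3 included 0, and Gata1 had only 28.5 mean counts. Of the 6 genes of the list with 50 counts, 2 were lower and 4 higher in pool 2 (median log2 ratio 0.11). Itga2b was at 0.31 (0.04 to 0.59), and Cpa3, with 23.5 mean counts, at 0.91 (0.02 to 1.88).

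The summed level of otic epithelium markers was higher in pool 1. The sum was 266 TPM in pool 1 and 121 TPM in pool 2, with 6 of 7 at 1 TPM or more in both, and 4 of 7 were lower in pool 2 by 2-fold or more. Oc90, an otoconia matrix gene, accounted for most of it at 232.99 and 100.57 TPM (log2 ratio −1.25). Fbxo2, another inner ear gene, was at 8.46 and 2.56 TPM (log2 ratio −1.73), whereas Tbx1 was at 12.00 and 11.80 TPM and Hmx2 at 2.73 and 3.03 TPM. All 7 had log2 ratios below 0, with a median of −1.25, and that of Hmx2 was −0.01. The part of otic, V2, blood and endothelial RNA in the levels of Gata2 and Gata3, and in their difference between the pools, was not tested.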

How the data were processed

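For each of the 2 pools, genes and transcripts had been quantified against GENCODE M21 and against M4, both on mm10, per the read-me files deposited with them. RNA was extracted with mirVana, primed with oligo-dT and tagmented with Nextera, with ERCC spike-ins added, per the labels' protocols. The program used and any use of strand are not given in the sources used here. Per gene and transcript, the authors deposited expected counts (estimated reads, not scaled for depth), TPM (its total includes spike-in and tRNA entries, so more spike-in RNA lowers the TPM of the genes), TPM interval bounds whose level is not stated, and isoform values in percent. Transcript shares here were recomputed from transcript TPM and counts.

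M21 was the main annotation. Expected counts were rounded for TMM factors in edgeR 4.0.16, and ratios between the pools used a prior count of 0.5 on genes with 50 or more mean counts. Counting intervals are 95% exact binomial intervals. They cover counting error only, since no molecular identifiers are mentioned. A floor of 3 counts was used where a gene had none. Alternatives were DESeq2 1.42.0 size factors, total gene counts, spike-in totals, M4, other TPM limits, TPM over genes only and a prior count of 5. The ratio step was tested on simulated data. The software was R 4.3.3 and Python 3.11.15 with matplotlib 3.10.9, scipy 1.17.1, numpy 2.4.6 and pandas 2.3.3.

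The members, the 8 gene lists and the alternatives were chosen with earlier results of these data known. Named genes are all 8 members, from every other list the 4 genes highest by mean TPM and up to 4 of the lowest under 1 TPM in both pools, and Tph1, Slc18a1, Lmx1b, Nkx2-2, Th, Dbh, Slc6a2, Slc6a3, Gata1, Tal1, Foxn4 and all serotonin receptor genes. Some genes that this rule names are not reported here. Others are said to be named after their values were seen. The 3 lists of paralogs, hindbrain and forebrain genes, the promoter motifs and the grouping of transcripts by start were added after seeing the data. Gene symbols matched 55450 of 55536 identifiers. Promoter windows are from RefSeq (GRCm38.p6). No sample was left out.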

Additional observations from a re-analysis of the deposited data

How the results depend on the processing

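No paired analysis was possible because the 2 pools form a single group. Of the summary results, 33 alternative values stayed close to the main one and 5 moved. Counted among those that stayed close, 5 of 8 members reached 5 TPM in both pools and 8 reached 0.5 TPM, where 7 reached 1 TPM. Of the fixed list genes, 28 reached 5 TPM in both pools where 51 reached 1 TPM. The share of all genes at 0.5 or 5 TPM is not given here. The members' median log2 ratio between the pools was −0.50 with spike-in totals and −0.12 with TMM, because that scaling shifts every gene. At a 1.5-fold limit 1 member differed between the pools, against 0 at 2-fold. With spike-in totals, added after seeing the data, 3 did, all lower in pool 2, and Htr1a no longer did. Between annotations 1 member (Gata2) moved by 1.5-fold in TPM and 0 did in expected counts, an alternative chosen after seeing the data. Another alternative chosen then, Gata2 without Gata2-203, left 6 of 7 neighbouring pairs apart.

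Leaving out either pool gave 7 to 8 members at 1 TPM or more, a median level of 6.17 to 7.43 TPM, 53 to 54 list genes at 1 TPM and 6 members with a leading transcript. Ratios need both pools and have no such value. Single-gene levels shifted with annotation or TPM total by more than the pool spread for some members, for example Gata2 at 17.2 TPM in M4 and Slc6a4, whose spread is very small, at 3.54 TPM. Depth limits Htr1a (51 counts in pool 1), the Ddc starts, and receptor genes with under 10 counts.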
